A study of Homo sapiens with 4 samples.

Results

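This report describes 54 genes of cullins, BTB proteins and their partners among the 10147 genes of a TT-seq table from human K562 cells. They were taken by gene symbol, as the cullins (CUL), the Kelch-BTB genes (KLHL and KBTBD), the BTB genes BTBD and KCTD with a number, and the single genes KEAP1, SPOP, IVNS1ABP, RBX1 and CAND1. The genes fell into 6 cullins, 19 KLHL, 5 KBTBD, 8 BTBD and 11 KCTD genes, the pair RBX1 and CAND1, and 3 single adaptors. RefSeq annotates 92 protein-coding genes that match these names. A matching name does not show that a gene works in a cullin-RING ubiquitin ligase. The other members of the families, among them CUL2 and CUL4A, were not analysed here. The table holds genes above a read density limit that the study set, so these 54 had passed a filter on low values.

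K562 is a line from chronic myelogenous leukemia. In the cells used here the endogenous IWS1 gene carried an N-terminal dTAG, a tag that lets the ligand dTAG7 direct the protein to degradation. Control cells received the solvent DMSO and dIWS1 cells received 500 nM dTAG7, both for 1 h, so the tagged allele was common to both groups and cells without the tag took no part in the comparison. RNA made during a 5 min pulse with 500 µM 4-thiouridine (4sU) was then purified and sequenced, which gives RNA synthesis rather than RNA abundance. The labels give 2 libraries for each group, as biological duplicates, and the sources used here do not say whether the tagged line was 1 clone. IWS1 is an elongation factor that travels with RNA polymerase II.

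Cullins are scaffold proteins. One end of a cullin holds a RING protein, mostly RBX1, which brings in a ubiquitin-charged enzyme, and the other end holds a substrate receptor. CUL1 holds its F-box receptors through SKP1, CUL4 proteins hold theirs through DDB1, and CUL5 works with elongins B and C. CUL3 is different because its BTB proteins are adaptor and receptor at once. In the KLHL and KBTBD proteins a Kelch propeller binds the substrate, SPOP uses a MATH domain, and many KCTD proteins bind CUL3 through a BTB domain without a Kelch repeat. Attachment of the small protein NEDD8 activates a cullin, the COP9 signalosome removes it, and CAND1 exchanges the receptors.

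The values were reads per gene in 3 distinct library columns, which were recovered from the deposited mean of each gene. The control column entered the mean with the weight of a pair of equal columns and was counted once, so the control had no replicate. The 2 dIWS1 columns differed from each other and carried no replicate number. They are called column 1 and column 2 here. That the pair is dIWS1 and the single column is control follows from how the study's legends name its ratio, not from the table, and every direction given here rests on it. The columns held 29494381 (control), 20444452 (column 1) and 20661842 (column 2) reads in genes. Reads were divided by the spike-in size factor of the column to give normalised reads. After this scaling column 1 lay below column 2 by a median log2 difference of -0.12 (SD 0.13 over 8897 genes with a mean of at least 100), and column 2 was above column 1 in 48 of the 54 genes. The reads of CUL3, CUL5 and BTBD9 had several solutions. For these the one was kept whose dIWS1 columns lay close to each other, so the closeness of their columns is not a measurement. The 13 erythroid and K562 marker genes looked up were all in the table, and their summed normalised reads were 31712 in the control column, 24455 in column 1 and 27421 in column 2. None of 7 genes that mark lymphoid, monocytic, hepatic or epithelial cells was in the table. Synthesis of IWS1 itself was 3649 normalised reads in the control and 2350 and 2640 in the dIWS1 columns (log2 change -0.55, SE 0.15, limma voom adjusted p = 0.000781). dTAG7 acts on the protein, so this value does not check the labels.

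Synthesis of most of the 54 genes was lower after IWS1 depletion, as it was for most genes of the table. The limma voom test, with Benjamini-Hochberg adjustment over 10133 genes, called 30 of the 54 lower and 1 higher at an adjusted p under 0.05. The gene called higher was KLHL15. Of all genes 64.5% were called lower and 0.109% higher, so the share of the 54 called lower (55.6%) lay near the background and is not a result about these genes. Their median log2 change was -0.38, beside -0.41 for all genes with a mean of at least 100. With the columns scaled to total reads in genes in place of the spike-ins the median of all genes was at 0.03, and 8 of the 54 genes were called lower and 14 higher, KLHL15 again among them, beside 11.3% and 15.3% of all genes. All directions given here are therefore relative to the spike-ins, or to the median gene where this is said. In 47 of the 54 genes both dIWS1 columns were below the control column, beside 9336 of all 10133 genes. This count also lay near the background. The 30 genes called lower ranged from -1.19 to -0.31, and all 30 were below the control in both columns. The 23 genes that did not pass the test ranged from -0.49 to 0.07. For 16 of these 23 the 95% interval of the change included the median of all genes, so missing the threshold does not show that they kept their synthesis.

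**Figure D1:**
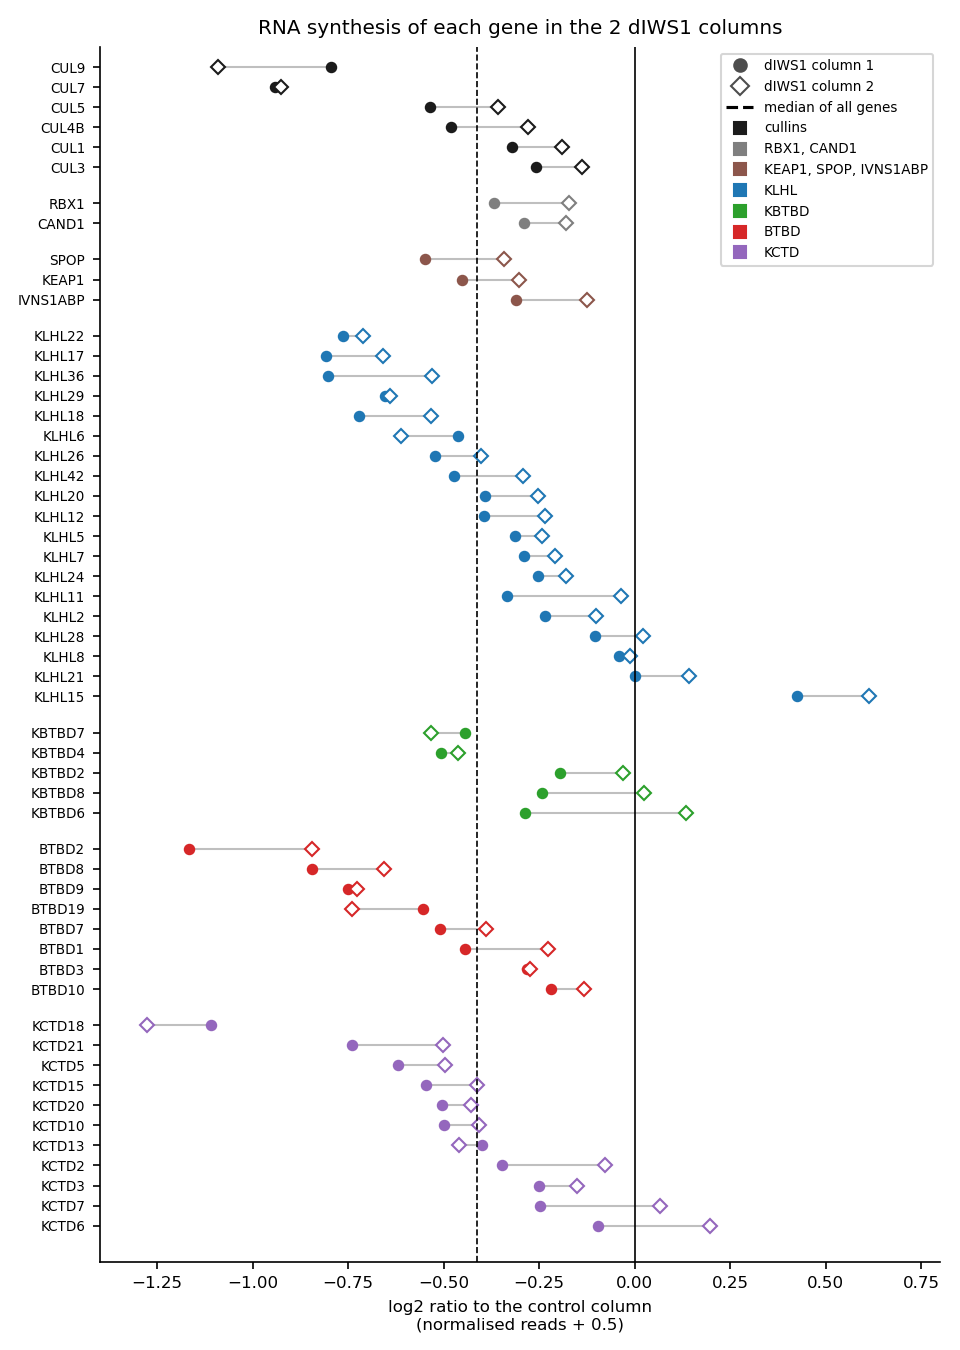
Each line is 1 of the 54 genes, grouped by family. The x axis gives the log2 ratio of normalised reads, with 0.5 added, in dIWS1 column 1 (filled circles) and column 2 (open diamonds) to the control column, the solid line marks no change and the dashed line the median of all genes (-0.41). KLHL15 stands to the right of 0 in both columns, and KCTD18, BTBD2, CUL9 and CUL7 lie farthest to the left.

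Because the whole table moved, each change was also tested against the median gene in the same fit. Relative to the median gene 4 of the 54 genes were lower and 2 were higher. The 4 lower genes were KCTD18, BTBD2, CUL9 and CUL7, and the 2 higher genes were KLHL15 and KLHL21. Of all genes 5.2% were lower and 2.68% higher by this test. The remaining 48 genes did not pass it. The spread behind these tests came from the 2 dIWS1 columns and was shared between genes of like depth, since a single control column gives no spread of its own. An exact permutation test of 1 column against 2 cannot go below p = 0.333, so no such test of a single gene could pass the threshold.

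**Figure D2:**
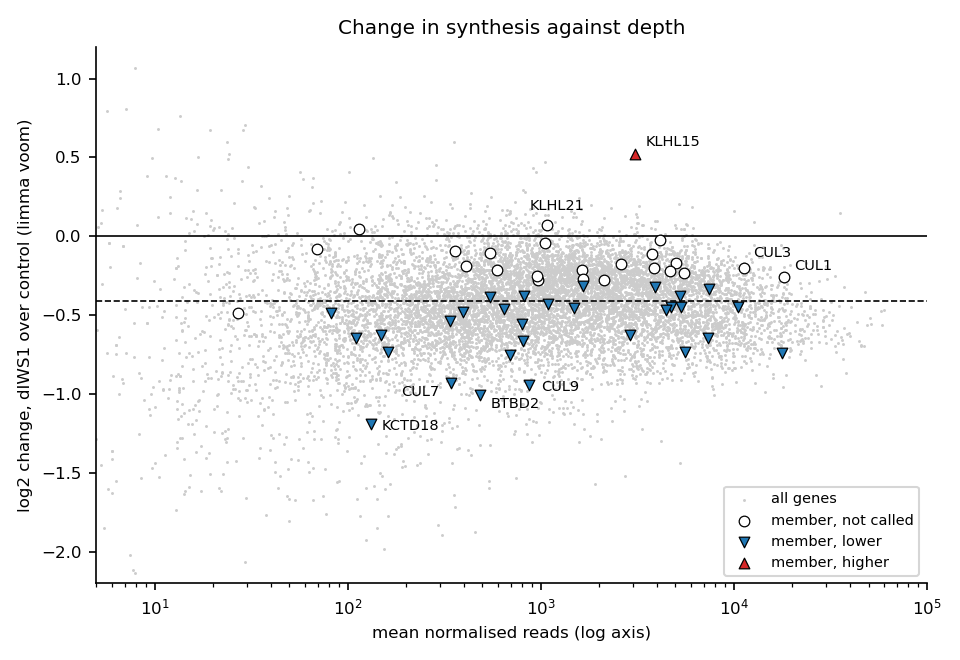
The log2 change (dIWS1 over control, limma voom) of each gene is plotted against its mean normalised reads on a log axis, with all genes in grey and the 54 genes as triangles (called lower or higher) or circles (not called). The 54 genes spread over the cloud of all genes around the dashed median, KLHL15 lies at 0.52 and KCTD18 at -1.19, and 166 genes lie outside the axes.

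KLHL15 is a receptor of CUL3 whose known substrates include PPP2R5B, a regulatory subunit of the phosphatase PP2A, and the DNA end resection factor CtIP. Its gene spans chrX:23983720-24027186 (GRCh38.p14, minus strand). KLHL15 had 2534 normalised reads in the control, rising to 3404 in column 1 and to 3876 in column 2 of dIWS1. Both dIWS1 columns were above the control. The log2 change was 0.52 (SE 0.15, 95% interval 0.23 to 0.81, adjusted p = 0.00143), a gain of 43.4%. Relative to the median gene synthesis of KLHL15 was 1.91-fold higher (log2 0.93, adjusted p = 9.48e-08). It was 1 of 11 genes called higher in the whole table. The direction of KLHL15 was known when the genes were chosen, so its call is a description.

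KLHL21 adapts CUL3 to the chromosomal passenger kinase Aurora B in mitosis. Its gene spans chr1:6590724-6602869 on the minus strand. KLHL21 had 1048 normalised reads in the control, 1049 in column 1 and 1157 in column 2. The control and column 1 could hardly be told apart, and column 2 was the highest. Against no change KLHL21 did not pass the test (log2 0.07, 95% interval -0.19 to 0.34, adjusted p = 0.621). Relative to the median gene it was 1.40-fold higher (log2 0.49, adjusted p = 0.00875). This call was lost in the limma fit without weights for read depth.

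The sequences in front of these 2 genes are shown because both contain the letters of a TATA box. TATAAA, searched on both strands from 250 bases before to 50 after the RefSeq start, was found in 2 of the 47 promoters that could be matched to the 54 genes (4.26%), those of KLHL15 and KLHL21, beside 4.97% of 7462 promoters of the table. In both it reads TTTATA on the strand of the gene, beginning 29 bases before the start in KLHL15 and 28 bases before it in KLHL21. A match of letters is not a binding site. The promoters differ otherwise. That of KLHL15 had 38.7% G and C and 6 CpG dinucleotides, and that of KLHL21 had 78.0% and 47, beside medians of 68.3% and 30 over the 47 promoters. GENCODE release 44 gives KLHL15 6 transcripts with starts over 2.39 kb, and the sequence shown is the one before the most upstream start. For KLHL21 GENCODE lists a start farther upstream than the RefSeq start used. The lines give the 250 bases before the RefSeq start in GRCh38.p14, 5′ to 3′ on the gene's strand, at chrX:24027187-24027436 for KLHL15 and chr1:6602870-6603119 for KLHL21, with capitals for these TATA letters, for the GC box GGGCGG and for TGACNNNGC, the core of the antioxidant response element, each on either strand.
KLHL15 promoter: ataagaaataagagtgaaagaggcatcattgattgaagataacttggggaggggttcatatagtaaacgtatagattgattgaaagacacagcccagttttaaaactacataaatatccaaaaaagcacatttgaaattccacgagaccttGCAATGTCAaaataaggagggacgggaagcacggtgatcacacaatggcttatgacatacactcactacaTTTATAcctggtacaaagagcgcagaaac
KLHL21 promoter: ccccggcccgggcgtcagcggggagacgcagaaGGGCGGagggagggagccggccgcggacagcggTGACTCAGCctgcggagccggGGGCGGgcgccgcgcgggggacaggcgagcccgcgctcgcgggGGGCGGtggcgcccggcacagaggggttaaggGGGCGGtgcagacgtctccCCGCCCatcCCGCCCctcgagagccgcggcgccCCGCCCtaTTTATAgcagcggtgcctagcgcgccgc

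Of the 6 cullins, 4 were called lower and none higher, and 2 of these 4 were also lower than the median gene. Of all genes 64.5% were called lower, 0.109% higher and 5.2% lower than the median gene. The 6 cullins spanned -0.94 to -0.20 with a median of -0.41. Both dIWS1 columns were below the control in all 6, beside 9336 of all 10133 genes. CUL9, a large atypical cullin of the cytoplasm also known as PARC, had 1142 normalised reads in the control, 658 in column 1 and 536 in column 2. Both dIWS1 columns were below the control, and column 1 exceeded column 2 by 0.30 on the log2 scale, the largest such excess among the 54 genes. CUL9 was lower by 0.94 on the log2 scale (log2 change -0.94, SE 0.13, adjusted p = 1.07e-10), which was -0.53 relative to the median gene (adjusted p = 0.00287). The single columns gave -0.33 (column 1) and -0.73 (column 2) relative to the median gene. CUL7, which assembles with the F-box protein FBXW8, had 453 normalised reads in the control and 236 and 238 in the dIWS1 columns. Its log2 change was -0.93 (SE 0.14, adjusted p = 4.44e-10), or -0.52 relative to the median gene (adjusted p = 0.00477). CUL7 (chr6:43037617-43053851) and CUL9 (chr6:43182196-43224587) lie in the same region of chromosome 6. CUL7 lost its call against the median gene in the fit without weights for read depth, and CUL9 lost it when both dIWS1 columns were scaled to the same median.

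The promoter of CUL9, the lowest of the cullins, is shown for comparison with those of KLHL15 and KLHL21. It had 71.3% G and C with 35 CpG dinucleotides. TATAAA did not occur in it on either strand, as in all of the 47 promoters but those of KLHL15 and KLHL21. A link between promoter letters and the change was not tested. GENCODE release 44 gives CUL9 18 transcripts with starts over 41.1 kb. The line gives the 250 bases before the start, chr6:43181946-43182195 on the plus strand, with a GC box in capitals. Promoters for CUL7, KCTD18 and BTBD2 were not used here.
CUL9 promoter: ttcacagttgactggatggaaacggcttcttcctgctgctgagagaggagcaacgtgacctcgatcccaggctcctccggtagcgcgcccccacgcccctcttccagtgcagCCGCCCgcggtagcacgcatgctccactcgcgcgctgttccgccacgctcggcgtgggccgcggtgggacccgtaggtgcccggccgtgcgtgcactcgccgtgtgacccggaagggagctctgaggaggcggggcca

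Of the 4 cullins of the classical ligases CUL5 and CUL4B were called lower, and CUL1 and CUL3 were not. CUL5, which works with elongins B and C and RNF7, had 12206 normalised reads in the control and 8426 and 9526 in the dIWS1 columns, and its log2 change was -0.45 (SE 0.15, adjusted p = 0.00519). CUL4B, a DDB1 cullin on the X chromosome, had 5968, 4278 and 4914, and its log2 change was -0.38 (adjusted p = 0.0201). In both genes the dIWS1 columns were below the control. The call of CUL4B was lost in the fit without weights for read depth. CUL1, the scaffold of the SCF ligases, had 19892, 15936 and 17424 normalised reads, the most reads of the 6, with a log2 change of -0.26 (95% interval -0.53 to 0.02, adjusted p = 0.0984). CUL3, the scaffold that the BTB proteins bind, had 12141, 10152 and 11027, with a log2 change of -0.20 (95% interval -0.48 to 0.09, adjusted p = 0.209). Both stayed below their control level in each dIWS1 column without passing the test. Relative to the median gene CUL1 was at 0.16 and CUL3 at 0.21, and neither difference passed (adjusted p = 0.546 and 0.399). Both genes were called lower than the control with the control column entered 2 times and with both dIWS1 columns scaled to the same median. The second of these settings also placed CUL3 above the median gene. The first counts 1 library as 2, and the second takes out the shift between the dIWS1 columns. Neither adds a sample, and both let more genes pass. Of all 10133 genes 7880 and 7470 were then called lower, beside 6531 in the main fit. With scaling to total reads in genes CUL1 and CUL3 were called higher.

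Neither RBX1 nor CAND1 passed the test. RBX1, the RING protein that most cullins share, had 1820 normalised reads in the control, 1411 in column 1 and 1616 in column 2 (log2 change -0.27, adjusted p = 0.0845). CAND1, the receptor exchange factor, had 6009, 4917 and 5308 (log2 change -0.23, adjusted p = 0.151). Both dIWS1 columns were below the control in both genes, and the 95% intervals reached from -0.55 to 0.01 and from -0.53 to 0.06. These intervals include the median gene. Like CUL1 and CUL3, both genes were called lower with the control entered 2 times and with the dIWS1 columns scaled to the same median. CAND1 was called higher with scaling to total reads in genes.

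Among the 3 single adaptors SPOP and KEAP1 were called lower and IVNS1ABP was not. SPOP, the nuclear adaptor of BET proteins, had 6161 normalised reads in the control and 4213 and 4859 in the dIWS1 columns (log2 change -0.45, SE 0.15, adjusted p = 0.00654). KEAP1, the adaptor that keeps the transcription factor NRF2 low, had 929, 679 and 754 (log2 change -0.38, SE 0.13, adjusted p = 0.00868). IVNS1ABP, a Kelch protein named for its binding to an influenza virus protein, had 5013, 4044 and 4596 (log2 change -0.22, 95% interval -0.51 to 0.08, adjusted p = 0.183). All 3 were below the control in both columns and none differed from the median gene by the test. IVNS1ABP was called lower with the dIWS1 columns scaled to the same median and higher with scaling to total reads in genes.

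Of the 19 KLHL genes, 10 were called lower, 1 higher and 8 were not called, and their median was -0.31. The shares of all genes were 64.5% lower and 0.109% higher. This family held the widest upper range of the 54 genes, since KLHL15 and KLHL21 belong to it. The 3 lowest were KLHL22, KLHL17 and KLHL36. KLHL22, a receptor for the mitotic kinase PLK1 and for DEPDC5, an inhibitor of mTORC1, had 7032 normalised reads in the control and 4146 and 4299 in the dIWS1 columns. Its log2 change was -0.74 (SE 0.15, adjusted p = 7.78e-06). KLHL17, known as actinfilin from its binding to actin, had 203, 116 and 128 (log2 change -0.74, SE 0.17, adjusted p = 5.72e-05). KLHL36 had 990, 567 and 685 (log2 change -0.67, SE 0.13, adjusted p = 4.46e-06). In these 3 genes the dIWS1 columns were far below the control, and none of the 3 passed the test against the median gene. KLHL22 passed it with the control entered 2 times and with the dIWS1 columns scaled to the same median, and KLHL17 with the first of these. At the other end KLHL8, a receptor for rapsyn, had 4180, 4066 and 4144 normalised reads, so its columns were nearly level. Its log2 change was -0.03 (95% interval -0.32 to 0.27, adjusted p = 0.877), and 0.39 relative to the median gene, which did not pass (adjusted p = 0.0932) but did in both of those settings.

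The 5 KBTBD genes had a median of -0.11, and 1 of them, KBTBD4, was called lower, beside 64.5% of all genes. The genes KBTBD4, KBTBD6 and KBTBD7 had a mean under 100 normalised reads. KBTBD6 and KBTBD7 are neighbouring, closely related genes. Reads that match both equally well are dropped when only unique alignments are kept, so the values of KBTBD6 and KBTBD7 are uncertain. KBTBD2, which directs the p85 subunit of PI3 kinase to degradation, had 3909 normalised reads in the control, 3412 in column 1 and 3828 in column 2 (log2 change -0.11, 95% interval -0.41 to 0.18, adjusted p = 0.493). KBTBD8, known from neural crest formation, had 570, 481 and 580 (log2 change -0.11, 95% interval -0.36 to 0.14, adjusted p = 0.437). For KBTBD8 the control lay between the dIWS1 columns.

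Of the 8 BTBD genes, 6 were called lower, beside 64.5% of all genes. Their median was -0.55, the lowest of the families, and a difference between families was not tested. All 8 were below the control in both columns, beside 9336 of all 10133 genes. BTBD2, which binds topoisomerase I, had 645 normalised reads in the control, 287 in column 1 and 359 in column 2. Synthesis of BTBD2 fell by 50.3% (log2 change -1.01, SE 0.13, adjusted p = 1.86e-12), and it was lower than the median gene by a log2 difference of -0.60 (adjusted p = 0.000388). Its close relative BTBD1, which also binds topoisomerase I, had 8292, 6096 and 7092 normalised reads with a log2 change of -0.33 (SE 0.15, adjusted p = 0.0387), a call that was lost in the fit without weights for read depth. BTBD8 had 875, 487 and 555 (log2 change -0.75, SE 0.13, adjusted p = 1.96e-07). BTBD9, a gene linked to restless legs syndrome, had 22315, 13262 and 13492, the most normalised reads of the 54 genes in the control column, and its log2 change was -0.74 (SE 0.14, adjusted p = 2.44e-06). Relative to the median gene BTBD8 was at -0.34 and BTBD9 at -0.33, and neither passed (adjusted p = 0.0896 and 0.144). With the dIWS1 columns scaled to the same median both passed it, and BTBD9 also with the control entered 2 times. BTBD3, which orients dendrites in neurons, and BTBD10 did not pass the test, with log2 changes of -0.28 (adjusted p = 0.0574) and -0.18 (adjusted p = 0.275). Both were called lower with the control entered 2 times and with the dIWS1 columns scaled to the same median. BTBD10 was called higher with scaling to total reads in genes.

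Of the 11 KCTD genes, 7 were called lower, none was called higher, and their median was -0.45. The shares of all genes were 64.5% lower and 0.109% higher. KCTD18 had 185 normalised reads in the control, 85.6 in column 1 and 76.1 in column 2, the lowest ratio of the 54 genes. It fell by 56.2% (log2 change -1.19, SE 0.18, adjusted p = 2.84e-09), and by a log2 difference of -0.78 against the median gene (adjusted p = 0.000973). These values rest on 187, 85 and 70 reads. KCTD21, an adaptor for the deacetylase HDAC1, had 180, 108 and 127 normalised reads (log2 change -0.62, SE 0.17, adjusted p = 0.000864). KCTD5, an adaptor for G protein beta-gamma subunits, had 957, 623 and 678 (log2 change -0.56, SE 0.13, adjusted p = 0.000115). In all 3 genes the dIWS1 columns were below the control. KCTD6, the related HDAC1 adaptor, had 113, 106 and 129 normalised reads, with the control between the dIWS1 columns (log2 change 0.05, 95% interval -0.33 to 0.42, adjusted p = 0.825). KCTD7, a gene of progressive myoclonic epilepsy, had 369, 311 and 387 (log2 change -0.09, 95% interval -0.35 to 0.17, adjusted p = 0.527). KCTD3 had 4134, 3476 and 3724 (log2 change -0.20, 95% interval -0.50 to 0.09, adjusted p = 0.221). It was called lower in both of the settings named for BTBD3 and higher with scaling to total reads in genes. A difference between KCTD6 and KCTD21 was not tested.

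Between genes, levels were compared as normalised reads per kb of the RefSeq gene span. In the control column the 54 genes ranged from 5.90 per kb for KLHL6 to 240 per kb for IVNS1ABP, with a median of 41.8. The medians were 29.9 and 32.7 per kb in the dIWS1 columns. The shared parts of the ligases stood in the upper part of this range. CUL1 had 192 normalised reads per kb in the control, CUL5 123, CAND1 119, CUL4B 115, CUL3 105 and RBX1 83.0. The 2 atypical cullins were low, with 27.9 for CUL7 and 26.9 for CUL9. Among the families taken by name, whose members need not all be substrate receptors, the level varied far more. The medians per kb were 39.5 over the KLHL genes, 33.4 over the BTBD genes, 25.7 over the KCTD genes and 14.2 over the KBTBD genes. KLHL15 stood at 58.3 per kb in the control, the 18th of the 54, and at 78.3 and 89.2 in the dIWS1 columns.

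**Figure D3:**
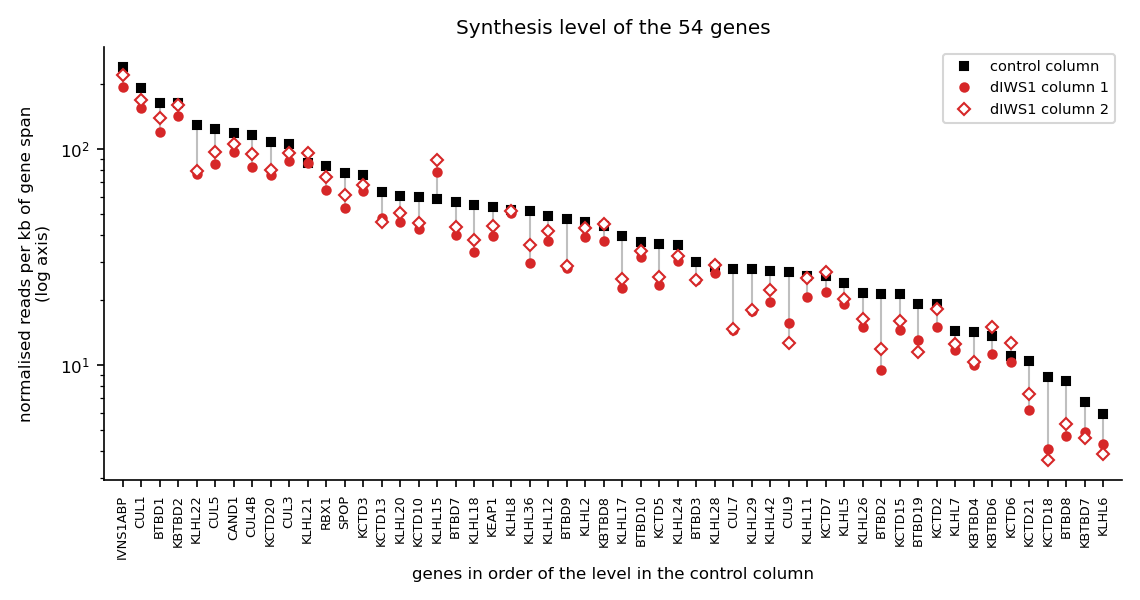
Normalised reads per kb of gene span, on a log axis, are shown for the 54 genes in order of the control column (black squares), with dIWS1 column 1 (filled red circles) and column 2 (open red diamonds). IVNS1ABP, CUL1, BTBD1 and KBTBD2 stand highest, and the dIWS1 symbols of KLHL15 lie above its control symbol.

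Among other genes of the pathway, looked up as 4 lists, some were called lower and none was called higher. Of all genes 64.5% were called lower and 0.109% higher, so the absence of a higher call in short lists is not a result about them. The shares of the lists called lower ran from 40% to 75%, and no list was tested as a set. Of 10 neddylation genes found, 5 were called lower and none higher, with a median of -0.31. The 2 lowest were UBE2M, the NEDD8-conjugating enzyme (log2 change -0.58, adjusted p = 0.00202), and UBA3, the catalytic subunit of the NEDD8-activating enzyme (-0.47, adjusted p = 0.000948). NAE1, the other subunit of that enzyme, was at -0.26 (adjusted p = 0.103) and RNF7, the RING partner of CUL5, at -0.22 (adjusted p = 0.118). Of 11 genes of the COP9 signalosome and of receptor exchange 6 were called lower and none higher, with a median of -0.37. CAND2, a relative of CAND1, was lowest at -0.63 (adjusted p = 1.22e-05). COPS5, which carries the catalytic site that removes NEDD8, did not pass (-0.26, adjusted p = 0.101). COPS8 was at -0.03 (adjusted p = 0.829) and was higher than the median gene (log2 difference 0.38, adjusted p = 0.0414).

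Of 10 adaptor genes of the other cullins 4 were called lower and none higher, with a median of -0.28. DET1, which works with DDB1 and COP1, was lowest at -1.04 (adjusted p = 3.88e-13) and BTRC, an F-box receptor of beta-catenin, followed at -0.67 (adjusted p = 4.77e-05). DET1 was also lower than the median gene (log2 difference -0.62, adjusted p = 0.00016). The core adaptors SKP1 of CUL1 (-0.13, adjusted p = 0.441) and DDB1 of CUL4 (-0.28, adjusted p = 0.0864) did not pass, nor did the receptors CRBN (-0.18, adjusted p = 0.265) and VHL (-0.28, adjusted p = 0.0574). Of 16 genes for substrates of KEAP1, SPOP, KLHL15 and KLHL2 and for the NRF2 pathway 12 were called lower and none higher, with a median of -0.46. SLC7A11, the cystine transporter and a target of NRF2, was lowest at -0.90 (adjusted p = 3.27e-08), followed by the NRF2 partner gene MAFK at -0.61 (adjusted p = 2.22e-05). Of the other NRF2 target genes SRXN1 (-0.38, adjusted p = 0.0178) and PRDX1 (-0.33, adjusted p = 0.0409) were also called lower, and GCLC, NQO1, SQSTM1 and GCLM were not. GCLC, at 3856 normalised reads in the control and 3938 and 4304 in the dIWS1 columns, had a log2 change of 0.09 (adjusted p = 0.567). NQO1 was at 0.02 (adjusted p = 0.874), SQSTM1 at -0.10 (adjusted p = 0.542) and GCLM at -0.17 (adjusted p = 0.280). GCLC and NQO1 were higher than the median gene (adjusted p = 0.0169 and 0.0223), and SLC7A11 was lower (adjusted p = 0.0193). PPP2R5B, a substrate of KLHL15, had a log2 change of -0.59 (adjusted p = 0.00494), from 130 reads in the control and 75 and 89 in the dIWS1 columns. Relative to the median gene PPP2R5B was at -0.18, which did not pass (adjusted p = 0.617). The gene of CtIP was not among the 16.

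Families from other ligases, or with the same domain, were set beside the 54 genes. Of 40 F-box genes, the receptors of CUL1, 21 were called lower, of 12 DCAF genes, the receptors of CUL4, 8, and of 34 BTB zinc finger genes, which are mostly transcription factors, 19. The shares called lower were 52.5%, 66.7% and 55.9%, beside 64.5% of all genes. None of the 3 families had a gene called higher, beside 0.109% of all genes. Their medians were -0.35, -0.40 and -0.37, beside -0.38 for the 54 genes. The difference between these medians was not tested.

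**Figure D4:**
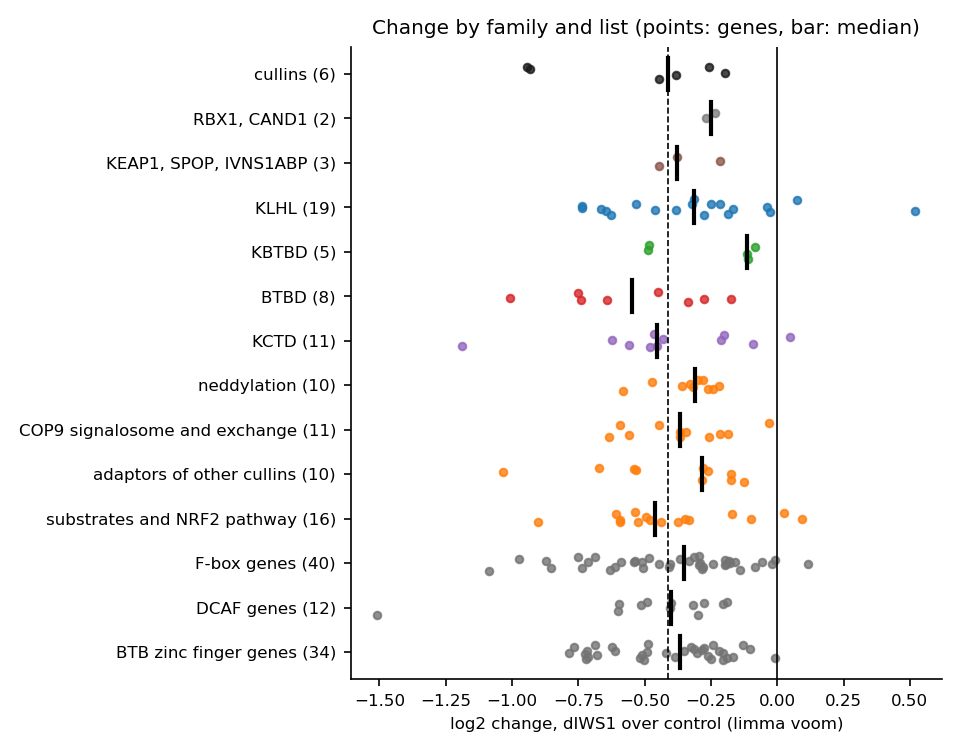
The log2 change (dIWS1 over control, limma voom) of each gene is shown by family and list, with the number of genes in brackets and the median as a bar, the solid line at no change and the dashed line at the median of all genes. All medians lie between -0.55 (BTBD) and -0.11 (KBTBD), and KLHL15 at 0.52 is the farthest point to the right.

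The changes were also set against gene length. Over the 51 genes with a mean of at least 100 the span ran from 5.14 to 471 kb with a median of 37.6 kb. Pearson's r between the log span and the log2 change was -0.02 and Spearman's rho was -0.02, over genes that share the same 3 columns, which are not independent. Among all 54 genes the median was -0.49 for the 5 under 10 kb, -0.32 for the 16 of 10 to 25 kb, -0.36 for the 18 of 25 to 65 kb and -0.32 for the 15 over 65 kb. The 5 shortest include KBTBD4, KBTBD6 and KBTBD7 with a mean under 100. Their median of -0.49 is the value of KBTBD7, from 32 reads in the control and 23 and 20 in the dIWS1 columns. BTBD9, the longest, was at -0.74 and KLHL17, the shortest of the 51, was also at -0.74.

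**Figure D5:**
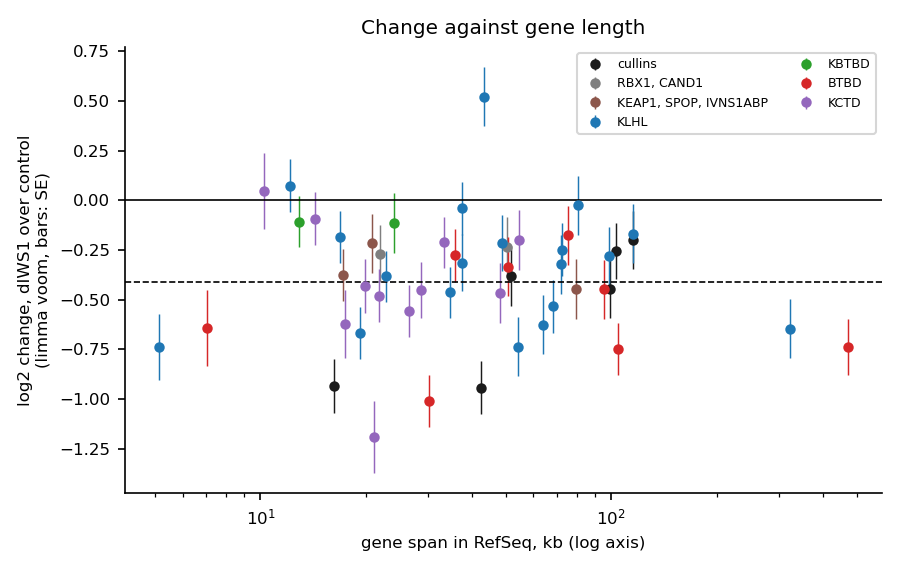
The log2 change (dIWS1 over control, limma voom, bars give the SE) of the 51 genes with a mean of at least 100 is plotted against the RefSeq gene span in kb on a log axis, coloured by family, with the dashed line at the median of all genes. KLHL17 at 5.14 kb and BTBD9 at 471 kb lie at the same height.

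The 47 matched promoters held GC boxes about as often as those of the table. GGGCGG was found on either strand in 34 of them (72.3%, beside 71.9% of the table). CCAAT was found in 10 (21.3% beside 37.5%), and the ETS core CCGGAAGT in 2 (4.26% beside 10.3%). The antioxidant core TGACNNNGC occurred in 12 (25.5% beside 15.7%), those of KLHL15, KLHL21, RBX1, SPOP and CUL5 among them. The cyclic AMP element TGACGTCA was in none, beside 3.55% of the table. These counts describe letters in a window of 300 bases and were not tested.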

How the data were processed

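TT-seq libraries of control and dIWS1 cells (2 each per the labels) were analysed from 1 deposited table. According to the labels and the methods of the study, the authors aligned reads with STAR 2.6.0 to GRCh38 with spike-in sequences, kept unique alignments, counted them per RefSeq gene and strand, removed overlapping genes and genes under a read density limit, and fitted DESeq2 with spike-in size factors. The table the authors deposited holds for each gene a mean of counts divided by size factors, a signal value over 4 library columns. It also holds the authors' log2 fold change with its error, test statistic and p-values. Of these the deposited log2 values were used only to see which columns form which arm, and none is printed or compared. No column of values was left unmapped.

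A mean is built from the reads of each column times the step that belongs to that column. The smallest means gave 3 steps, and 9708 of 10136 means above 0 had 1 solution. For 425 the solution was kept whose dIWS1 columns lay within 0.5 (log2) of their median ratio, and 3 genes, none of them among the 54, were left out. Of 4502 genes with a mean over 1000 and 1 solution, 99.91% lay within that window. Of 1000 means moved slightly, 5 could still be split. The control column entered the mean with a weight of 2, as a pair of equal columns would, and was counted once. Limma 3.58.1 (R 4.3.3) voom was run on the reads of 10133 genes, with library sizes in proportion to the size factors and adjustment over all genes. No count model was used, since the reads were recovered from means. Ratios of single columns had a pseudocount of 0.5. The fit leaves 1 residual degree of freedom, so genes of like depth share 1 estimate of spread, and a p-value measures only the spread between the 2 dIWS1 columns. The procedure was tested on simulated data without a column shift beyond the size factors. The simulation therefore does not test the limit set by the single control column. Python 3.11.15 (numpy 2.4.6, pandas 2.3.3, scipy 1.17.1, matplotlib 3.10.9) was used for the rest.

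Gene spans and promoters came from RefSeq (GRCh38.p14), in which all 54 symbols were found, 47 of them with a promoter. The patch of the build used by the authors is not given in the sources used here. The members and lists were chosen with earlier results of these data known. Values are given for every cullin, RBX1, CAND1, KEAP1, SPOP and IVNS1ABP, every member called higher or differing from the median gene, and the 3 lowest and 3 highest of KLHL, KBTBD, BTBD and KCTD with a mean of at least 100. Of the pathway lists, genes that were not called and the 2 lowest could be named. KBTBD4, KLHL6, KBTBD6, KBTBD7, PPP2R5B, SRXN1 and PRDX1 were named after their values were seen. Alternatives were another limma fit, pseudocounts, filters, thresholds, scalings, the control entered 2 times and leaving out each dIWS1 column.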

Additional observations from a re-analysis of the deposited data

How the results depend on the processing

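KLHL15 was called higher under each alternative that gave a test, and its log2 ratio was 0.43 and 0.61 in the single dIWS1 columns, where no test was made. All alternatives used the same control column, and the direction of KLHL15 was known beforehand, so they lend its call no support of their own. The fit without weights for read depth gave 1 member higher than the median gene in place of 2, with a pseudocount of 0.5 as with 2. With the control column entered 2 times 8 members were lower and 7 higher than the median gene. This setting counts 1 library as 2, which makes the test less strict without a new sample. At an adjusted p under 0.1, 4 were higher than the median gene. Scaling both dIWS1 columns to the same median gene, an alternative chosen after seeing the data for this count, gave 9 higher. By this test 5.2% of all genes were lower and 2.68% higher in the main fit. The shares of all genes under these alternatives are not given here, so the larger counts are not a result about the members. Scaling to total reads in genes turned the median log2 ratio of the members to 0.0629. It called 8 members lower and 14 higher, beside 11.3% and 15.3% of all genes. Some members called lower in the main fit were turned above 0, BTBD1 to 0.107, CUL4B to 0.0616 and KEAP1 to 0.0647 among them. The 14 called higher included CUL1, CUL3, CAND1, IVNS1ABP, BTBD10 and KCTD3, which were called lower with the dIWS1 columns scaled to the same median. These shifts follow from the construction of the scaling to total reads, which removes the change common to all genes. With a log2 change of at least 0.5, 15 members were lower, and the share of all genes at this limit is not given here. Leaving out 1 dIWS1 column at a time gave medians from -0.44 to -0.29, and from 0.0242 to 0.0735 relative to the median gene, where the value from both columns was 0.0339. Elsewhere the cause was not tested. The number of members called lower stayed between 25 and 41 under the other alternatives, and the calls of the pathway lists did not change with a mean of at least 100. The 41 came with the control entered 2 times and with the dIWS1 columns scaled to the same median. Of all genes 7880 and 7470 were then called lower, beside 6531 in the main fit. No paired analysis was possible because the recovered columns carry no replicate numbers. Precision is limited by the single control column, by 3 members with a mean under 100, and by reads that give counting error only.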
